A study of Mus musculus with 12 samples.

Results

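The antiviral interferon-stimulated genes described here are 46 mouse genes for effectors and sensors of the antiviral response, and their messenger RNA was measured in CD8 T cells from the spleen. They were taken by symbol from a list of such genes, which was drawn up with earlier results of these data known, and 46 of 46 were rows of the deposited table of 20778 genes. Of these, 45 passed the filter on low counts and were tested among 12122 genes, and each of the 45 reached the filter's level in all 3 Naïve libraries. The CD8 T cells came from C57BL/6 mice, had been isolated with magnetic beads (MojoSort), and were kept in culture for 6 hours. The treatments were αCD3, an antibody that activates T cells through CD3, which transmits the T cell receptor signal (1 µg/ml), interferon gamma (IFNγ, 70 ng/ml), and lipopolysaccharide from bacterial cell walls (LPS, 1 µg/ml), and untreated cells from the same kind of culture served as the Naïve group. For αCD3 and LPS a second label field has mg/ml instead, so the unit of these doses is uncertain. The mice were 6 weeks old by the labels, whereas older mice are named in the methods of the study, so this is uncertain as well. Each of the 4 groups had 3 libraries, 12 in all. No source says whether the replicates came from separate mice, so p-values measure only the spread between these libraries, which may be technical.

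Interferons are secreted proteins that warn cells of infection. Type I interferons (IFNα and IFNβ) signal through the receptor IFNAR to a complex that includes STAT2 and IRF9 and binds DNA elements called ISREs (interferon-stimulated response elements). IFNγ, which activated T cells and NK cells make, signals through another receptor and DNA elements called GAS (gamma-activated sites), and it also raises transcription factors such as IRF1 that bind ISREs. The genes switched on in this way encode proteins that bind, cut, edit or trap viral nucleic acid, deplete nucleotides, block membrane fusion, or feed back on the signal. LPS is sensed by Toll-like receptor 4, which in myeloid and B cells can lead to the release of type I interferon.

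Total counts ranged from 10.2 M to 27.6 M per library, the latter in αCD3 replicate 1. Values per library are CPM, which are counts divided by TMM-scaled library sizes, and are listed in the order of replicates 1, 2 and 3. Differences are log2 fold changes from a single edgeR fit over all 12 libraries, with their standard error (SE), and a gene is referred to as called when its adjusted p (Benjamini-Hochberg over all tested genes, edgeR quasi-likelihood test) was under 0.05. The T cell markers Cd3d, Cd3e, Cd3g, Cd8a, Cd8b1, Cd2, Cd5 and Lck had counts in every library and summed to 1132 to 2125 CPM. However, 8 B cell markers summed to 1728 to 3171 CPM, and markers of macrophages and monocytes (177 to 655 CPM over 9 genes), conventional dendritic cells (43.8 to 90.6 CPM over 5 genes) and plasmacytoid dendritic cells (62.3 to 140 CPM over 5 genes) were also present, each with a count in every library. Several of these sums differed between groups. B cell markers summed to 2951 to 3171 CPM in Naïve cells, 2125 to 2389 CPM with αCD3, 2576 to 2672 CPM with IFNγ and 1728 to 2306 CPM with LPS. Macrophage and monocyte markers were at 364 to 655, 239 to 364, 291 to 578 and 177 to 257 CPM in the same order, conventional dendritic cell markers at 68.6 to 90.6, 58.7 to 62.0, 43.8 to 53.0 and 66.0 to 89.6 CPM, 4 neutrophil markers at 123 to 196, 109.6 to 113, 137 to 163 and 111 to 129 CPM, T cell markers at 1354 to 1494, 1966 to 2125, 1470.4 to 1517 and 1132 to 1288 CPM, and 4 NK cell markers, each with a count in every library, at 68.4 to 82.8, 141 to 177, 92.3 to 161 and 67.6 to 117 CPM. Most of the NK cell sum was Eomes, which activated CD8 T cells also express, with means of 63.7, 156, 125 and 90.1 CPM, and the other NK cell markers did not all move with it. Klrb1c averaged 5.30, 3.03, 4.97 and 1.64 CPM, Klra8 3.08, 2.53, 4.08 and 1.52 CPM and Ncr1 1.95, 1.84, 2.40 and 3.93 CPM. In the order Naïve, αCD3, IFNγ and LPS, 3 CD4 T cell markers summed to 60.5 to 70.4, 44.7 to 56.0, 50.1 to 63.8 and 41.1 to 53.7 CPM. In the same order, 3 platelet markers summed to 14.9 to 24.4, 7.69 to 10.9, 10.9 to 19.3 and 8.99 to 11.3 CPM. The part of these shifts in the group differences of the antiviral genes was not tested. In bulk RNA of this kind, a change in the number of cells that express a gene and a change in RNA per cell cannot be told apart.

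To compare the antiviral genes between treatments, each treated group was first set against Naïve cells. With IFNγ, 43 of the 45 tested genes rose and none fell, with a median log2 fold change of 2.64 over the 45 genes against -0.02 over all tested genes. Over all genes, 8.17% were called higher and 4.27% lower with IFNγ. With LPS, 43 rose and none fell, with a median of 2.80 against -0.01 over all genes (26.9% of all genes were called higher and 22.3% lower). With αCD3, 38 rose and 2 fell, Ifitm1 and Ifitm2, with a median of 1.86 against -0.02 over all genes (22.9% called higher and 15.7% lower). The rise was called and at least 2-fold for 41 genes with IFNγ (3.02% of all genes), 42 with LPS (7.33%) and 34 with αCD3 (4.59%). When the 4 groups were tested together for a difference of any kind, 45 of 45 were called, against 59.9% of all genes. By group means, Naïve cells were lowest for 43 genes and αCD3 was next, and the highest mean was in IFNγ for 27 genes and in LPS for 18.

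**Figure D1:**
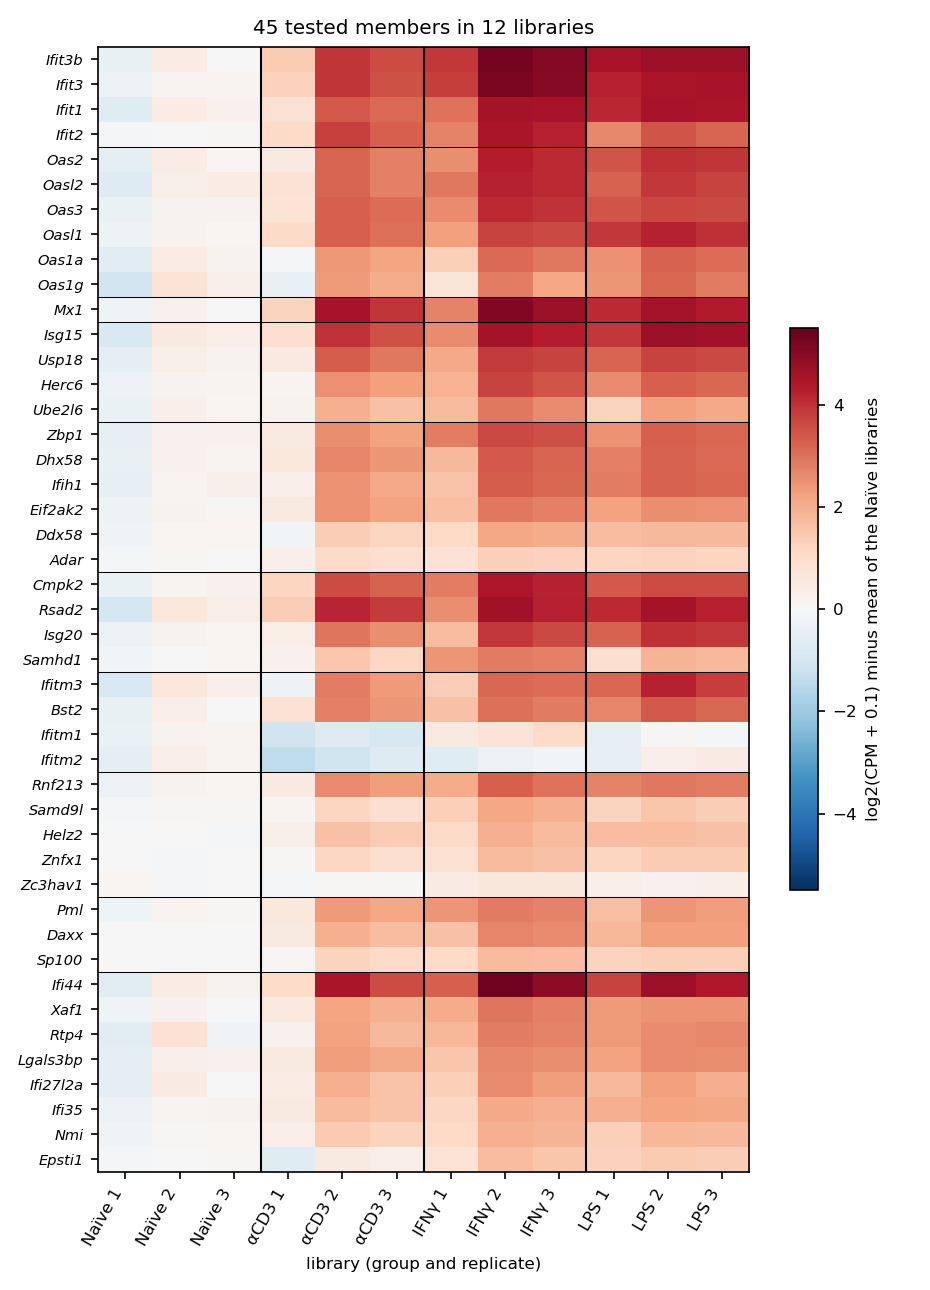
Colour shows log2(CPM + 0.1) minus the mean of the 3 Naïve libraries for the 45 tested antiviral genes (rows, ordered by role and then by the fold change with IFNγ) in the 12 libraries (columns). Most rows are red in all IFNγ and LPS libraries and in αCD3 replicates 2 and 3, whereas αCD3 replicate 1 is pale and Ifitm1 and Ifitm2 are blue with αCD3.

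The IFIT proteins bind viral RNA that lacks the host's cap modification and keep it from being translated. All 4 measured IFIT genes rose with each treatment, and Ifit3b had the highest fold change of the 45 tested genes with IFNγ and with LPS. Ifit3b was at 5.56, 9.62 and 7.26 CPM in the Naïve libraries, 19.2, 114 and 87.6 CPM with αCD3, 108, 280.0 and 246 CPM with IFNγ and 169.7, 193 and 197 CPM with LPS. All 9 treated libraries lay above the 3 Naïve libraries, with αCD3 replicate 1 nearest to them. The log2 fold change of Ifit3b was 4.84 ± 0.64 (SE, adjusted p = 0.00114) with IFNγ, 4.66 ± 0.63 (SE, adjusted p = 1.97e-04) with LPS and 3.30 ± 0.61 (SE, adjusted p = 0.00190) with αCD3. Ifit2 was at 30.3, 32.4 and 34.2 CPM in the Naïve libraries, 66.7, 441 and 318 CPM with αCD3, 212, 727 and 626 CPM with IFNγ and 202, 360.1 and 299.5 CPM with LPS. Ifit2 had the smallest rise of the family with IFNγ, 4.01 ± 0.67 (SE, adjusted p = 0.00343), and rose by 3.09 ± 0.64 (SE, adjusted p = 0.00379) with αCD3 and 3.15 ± 0.64 (SE, adjusted p = 0.00243) with LPS, which differed by -0.07 ± 0.59 (SE, adjusted p = 0.952). Ifit1 rose by 4.13 ± 0.66 with IFNγ, 4.34 ± 0.66 with LPS and 2.73 ± 0.62 with αCD3, and Ifit3 by 4.77 ± 0.63, 4.43 ± 0.62 and 3.26 ± 0.59. The genes lie side by side on chromosome 19, and Ifit3 and Ifit3b are near copies: only 38.2% and 44.7% of their 31-base words occur in no other gene of the annotation, so the deposited counting may have divided reads between them and their separate values are uncertain. Their promoters share an identical run of 169 bases. Stretches upstream of 3 IFIT genes are shown because these 3 rose most within the family with IFNγ and LPS, with capitals for every match to the ISRE core (GAAA, any 2 bases, GAAA) on either strand (GRCm38.p6, plus strand, RefSeq promoters, chr19:34640769-34640870 for Ifit1, chr19:34583329-34583448 for Ifit3 and chr19:34607757-34607876 for Ifit3b).
Ifit1: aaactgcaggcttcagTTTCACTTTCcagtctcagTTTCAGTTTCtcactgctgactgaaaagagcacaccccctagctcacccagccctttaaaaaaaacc
Ifit3: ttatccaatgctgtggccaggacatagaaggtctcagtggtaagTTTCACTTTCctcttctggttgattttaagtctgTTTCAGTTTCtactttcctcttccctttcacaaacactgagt
Ifit3b: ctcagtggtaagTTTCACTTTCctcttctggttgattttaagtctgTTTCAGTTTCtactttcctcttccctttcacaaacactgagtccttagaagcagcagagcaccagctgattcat
Each stretch held 2 matches, and the same pair with the same spacing is seen in Ifit3 and Ifit3b, moved by the offset between their annotated starts.

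The OAS enzymes make a short signalling nucleotide when they bind double-stranded RNA and so start the breakdown of RNA in the cell, whereas the OAS-like protein OASL1 lacks this activity. Of the 6 OAS genes, 5 rose with IFNγ, 5 with αCD3 and 6 with LPS. Oas2 was at 12.7, 24.6 and 19.7 CPM in the Naïve libraries, 26.2, 168 and 124 CPM with αCD3, 107, 372 and 317 CPM with IFNγ and 204, 302 and 282 CPM with LPS. Each treated library was above the Naïve range, by little in αCD3 replicate 1. Oas2 rose by 3.82 ± 0.67 (SE, adjusted p = 0.00485) with IFNγ, 3.80 ± 0.67 (SE, adjusted p = 0.00106) with LPS and 2.48 ± 0.64 (SE, adjusted p = 0.0121) with αCD3. Oas1g was at 1.12, 4.22 and 2.97 CPM in the Naïve libraries, 1.83, 12.8 and 10.3 CPM with αCD3, 3.97, 17.5 and 11.1 CPM with IFNγ and 13.5, 22.8 and 18.5 CPM with LPS. The lowest IFNγ library and the lowest αCD3 library of Oas1g fell within the Naïve range, whereas all 3 LPS libraries lay above it. Oas1g was called higher only with LPS, 2.76 ± 0.75 (SE, adjusted p = 0.0111), and the differences of 2.00 ± 0.74 (SE, adjusted p = 0.116) with IFNγ and 1.58 ± 0.74 (SE, adjusted p = 0.116) with αCD3 were not called here, but were with the replicate number as a block (adjusted p = 0.00614 and 0.0108). Oas1a and Oas1g share long stretches of sequence, with 31.2% and 44.9% of their 31-base words found in no other gene, and their separate values are uncertain. Oas3, Oasl1, Oasl2 and Oas1a rose by 2.58 to 3.78 on the log2 scale with IFNγ and by 2.92 to 4.04 with LPS. Of 18 alternative analyses (other tools, scaling and filters, the replicate block and libraries left out), the call of Oas1a held in 12 with IFNγ and in 8 with αCD3.

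Mx proteins are GTPases that form rings around viral nucleoprotein. Mx1 was at 11.5, 16.0 and 13.1 CPM in the Naïve libraries, 31.8, 312 and 206 CPM with αCD3, 89.3, 462 and 368 CPM with IFNγ and 234, 322 and 282 CPM with LPS. The 3 groups of treated libraries did not overlap with Naïve cells, but replicate 1 was far below replicates 2 and 3 with αCD3 and IFNγ. Mx1 rose by 4.50 ± 0.82 (SE, adjusted p = 0.00563) with IFNγ, 4.37 ± 0.81 (SE, adjusted p = 0.00141) with LPS and 3.76 ± 0.79 (SE, adjusted p = 0.00412) with αCD3, its αCD3 change being the largest of the 45 genes. Mx2 had no count in any of the 12 libraries and was not tested. The floor of 3 counts corresponds to 0.106 to 0.307 CPM in these libraries (counting error only), and the annotation lists Mx2 as a polymorphic pseudogene.

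ISG15 is a small protein that is attached to other proteins as ubiquitin is, UBE2L6 and HERC6 carry out steps of the attachment, and USP18 removes it and also dampens signalling from IFNAR. All 4 genes rose with all 3 treatments. Isg15 was at 6.87, 17.4 and 15.9 CPM in the Naïve libraries, 23.3, 194 and 142 CPM with αCD3, 75.8, 302 and 251 CPM with IFNγ and 187, 332 and 305 CPM with LPS. Naïve libraries were at most 17.4 CPM and all treated libraries were higher, yet αCD3 replicate 1 was close to the Naïve range. Isg15 rose by 3.99 ± 0.79 (SE, adjusted p = 0.00851) with IFNγ, 4.38 ± 0.80 (SE, adjusted p = 0.00127) with LPS and 3.17 ± 0.76 (SE, adjusted p = 0.00847) with αCD3. Ube2l6 was at 20.9, 33.4 and 29.0 CPM in the Naïve libraries, 30.9, 107 and 83.3 CPM with αCD3, 91.8, 203 and 168 CPM with IFNγ and 63.6, 130.0 and 115 CPM with LPS. Here αCD3 replicate 1 fell within the Naïve range, and all other treated libraries lay above it. Ube2l6 had the smallest changes of the 4, 2.48 ± 0.47 (SE, adjusted p = 0.00691) with IFNγ, 1.90 ± 0.46 (SE, adjusted p = 0.00648) with LPS and 1.40 ± 0.46 (SE, adjusted p = 0.0334) with αCD3. Usp18 and Herc6 rose by 3.36 ± 0.67 and 3.21 ± 0.61 with IFNγ, by 3.51 ± 0.67 and 3.04 ± 0.60 with LPS, and by 2.62 ± 0.65 and 1.92 ± 0.58 with αCD3. The Isg15 promoter is shown because it held 3 overlapping matches to the ISRE core, more than any other of these promoters (capitals, chr4:156200819-156200938, GRCm38.p6, minus strand).
Isg15: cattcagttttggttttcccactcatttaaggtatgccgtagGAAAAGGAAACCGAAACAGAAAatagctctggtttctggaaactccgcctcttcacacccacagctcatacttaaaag

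Viral RNA in the cytosol is sensed by RIG-I (Ddx58) and MDA5 (Ifih1), with LGP2 (Dhx58) as their regulator. ZBP1 senses left-handed nucleic acid and can trigger cell death, PKR (Eif2ak2) stops translation when it binds double-stranded RNA, and ADAR edits such RNA. All 6 rose with IFNγ and with LPS, and 5 rose with αCD3, the exception being Ddx58 at 0.93 ± 0.35 (SE, adjusted p = 0.0578), which was called with the replicate block (adjusted p = 0.0357). Zbp1 was at 101, 167 and 163 CPM in the Naïve libraries, 196, 818 and 646 CPM with αCD3, 996, 1733 and 1641 CPM with IFNγ and 770.4, 1358 and 1252 CPM with LPS. Naïve libraries stayed below every treated library, and IFNγ replicates 2 and 3 were the highest of the 12. Zbp1 rose by 3.34 ± 0.49 (SE, adjusted p = 0.00190) with IFNγ, 2.97 ± 0.48 (SE, adjusted p = 6.16e-04) with LPS and 1.94 ± 0.46 (SE, adjusted p = 0.00799) with αCD3. Adar was at 228, 256 and 244 CPM in the Naïve libraries, 293, 510.3 and 464 CPM with αCD3, 422, 596 and 583 CPM with IFNγ and 552, 572 and 557 CPM with LPS. No group overlapped with Naïve cells, and αCD3 replicate 1 was the treated library nearest to them. Adar had the smallest change among these sensors and enzymes, 1.14 ± 0.19 (SE, adjusted p = 0.00308) with IFNγ, 1.21 ± 0.19 (SE, adjusted p = 4.22e-04) with LPS and 0.80 ± 0.19 (SE, adjusted p = 0.00670) with αCD3. Adar overlaps Chrnb2 on the other strand, and since no source says whether the counting used strand, reads of the pair may not be told apart. Ifih1, Dhx58 and Eif2ak2 rose by 2.55 to 2.93 with IFNγ, 2.42 to 3.06 with LPS and 1.84 to 2.13 with αCD3, and Ddx58 by 1.82 ± 0.36 with IFNγ and 1.75 ± 0.36 with LPS.

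Viperin (Rsad2) turns CTP into a nucleotide that ends viral RNA chains, CMPK2 supplies nucleotides next to it, SAMHD1 breaks down dNTPs, and ISG20 is an exonuclease for RNA. The 4 genes rose with each treatment. Cmpk2 was at 10.7, 15.5 and 16.2 CPM in the Naïve libraries, 31.8, 170.0 and 131 CPM with αCD3, 98.9, 302 and 259.9 CPM with IFNγ and 145, 169 and 167 CPM with LPS. All treated libraries lay above the Naïve range. Cmpk2 rose by 3.97 ± 0.60 (SE, adjusted p = 0.00226) with IFNγ, 3.51 ± 0.59 (SE, adjusted p = 8.09e-04) with LPS and 2.97 ± 0.58 (SE, adjusted p = 0.00277) with αCD3. Samhd1 was at 564, 635 and 666 CPM in the Naïve libraries, 737, 1714 and 1348 CPM with αCD3, 3369.8, 4555 and 4229 CPM with IFNγ and 1177, 2249.7 and 2108 CPM with LPS. The lowest IFNγ library was above the highest library of every other group. Samhd1 rose by 2.70 ± 0.32 (SE, adjusted p = 6.66e-04) with IFNγ, 1.57 ± 0.30 (SE, adjusted p = 0.00181) with LPS and 1.03 ± 0.30 (SE, adjusted p = 0.0210) with αCD3. Rsad2 and Isg20 had larger fold changes with LPS (4.20 ± 0.77 and 3.75 ± 0.70) than with IFNγ (3.94 ± 0.76 and 3.33 ± 0.68), but their difference between IFNγ and LPS was not called (adjusted p = 0.781 and 0.616). The upstream stretch of Samhd1 is shown because this gene differed most between IFNγ and LPS, with its match to the GAS letters TTCNNNGAA in capitals (chr2:157135266-157135346, GRCm38.p6, minus strand).
Samhd1: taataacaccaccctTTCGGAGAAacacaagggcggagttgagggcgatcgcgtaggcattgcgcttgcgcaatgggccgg
It held no match to the ISRE core.

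IFITM proteins sit in membranes and keep viruses from fusing with the cell, and tetherin (Bst2) holds newly made viral particles at the surface. These genes split by member and by treatment. Ifitm1 was at 14.4, 21.5 and 20.7 CPM in the Naïve libraries, 8.67, 11.5 and 9.99 CPM with αCD3, 26.3, 30.3 and 38.3 CPM with IFNγ and 13.4, 19.7 and 17.6 CPM with LPS. The αCD3 libraries were all below the Naïve range and the IFNγ libraries all above it, whereas LPS overlapped with Naïve cells. Ifitm1 fell with αCD3, -0.91 ± 0.20 (SE, adjusted p = 0.00520), rose with IFNγ, 0.75 ± 0.20 (SE, adjusted p = 0.0314), and was at -0.15 ± 0.20 (SE, adjusted p = 0.558) with LPS. Ifitm2 was at 27.1, 51.5 and 44.0 CPM in the Naïve libraries, 14.8, 18.4 and 23.8 CPM with αCD3, 24.5, 31.5 and 35.3 CPM with IFNγ and 28.9, 51.3 and 53.2 CPM with LPS. The αCD3 libraries were again all below the Naïve libraries, and those of IFNγ and LPS overlapped with them. Ifitm2 fell with αCD3, -1.11 ± 0.29 (SE, adjusted p = 0.0135), and was not called with IFNγ, -0.42 ± 0.29 (SE, adjusted p = 0.414), or LPS, 0.13 ± 0.29 (SE, adjusted p = 0.733). With the replicate block, Ifitm2 was called lower with IFNγ as well (adjusted p = 0.0347). Ifitm3 was at 7.22, 19.0 and 15.5 CPM in the Naïve libraries, 10.6, 91.4 and 66.2 CPM with αCD3, 33.3, 116 and 108 CPM with IFNγ and 117, 246 and 181 CPM with LPS. Ifitm3 replicate 1 with αCD3 lay within the Naïve range, and the LPS libraries were the highest for each replicate number. It rose by 3.72 ± 0.77 (SE, adjusted p = 0.00262) with LPS and 2.64 ± 0.75 (SE, adjusted p = 0.0435) with IFNγ, while the αCD3 difference of 2.01 ± 0.74 (SE, adjusted p = 0.0525) was called with the replicate block (adjusted p = 0.00935). The IFNγ call of Ifitm3 held in 7 of the 18 alternatives and that of Ifitm1 in 13, with adjusted p up to 0.134 and 0.127. Bst2 rose by 3.08 ± 0.52 with LPS, 2.60 ± 0.52 with IFNγ and 2.19 ± 0.51 with αCD3. The 3 Ifitm genes are neighbours on chromosome 7 and share little of their sequence with each other, at most 39 of their 31-base words, but Ifitm2 overlaps the predicted gene Gm45717. The stretch upstream of Ifitm2, shown because the gene did not rise with any treatment, also held a match to the ISRE core (capitals, chr7:140955988-140956081, GRCm38.p6, minus strand).
Ifitm2: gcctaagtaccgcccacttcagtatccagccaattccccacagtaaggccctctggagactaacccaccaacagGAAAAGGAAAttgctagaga

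**Figure D2:**
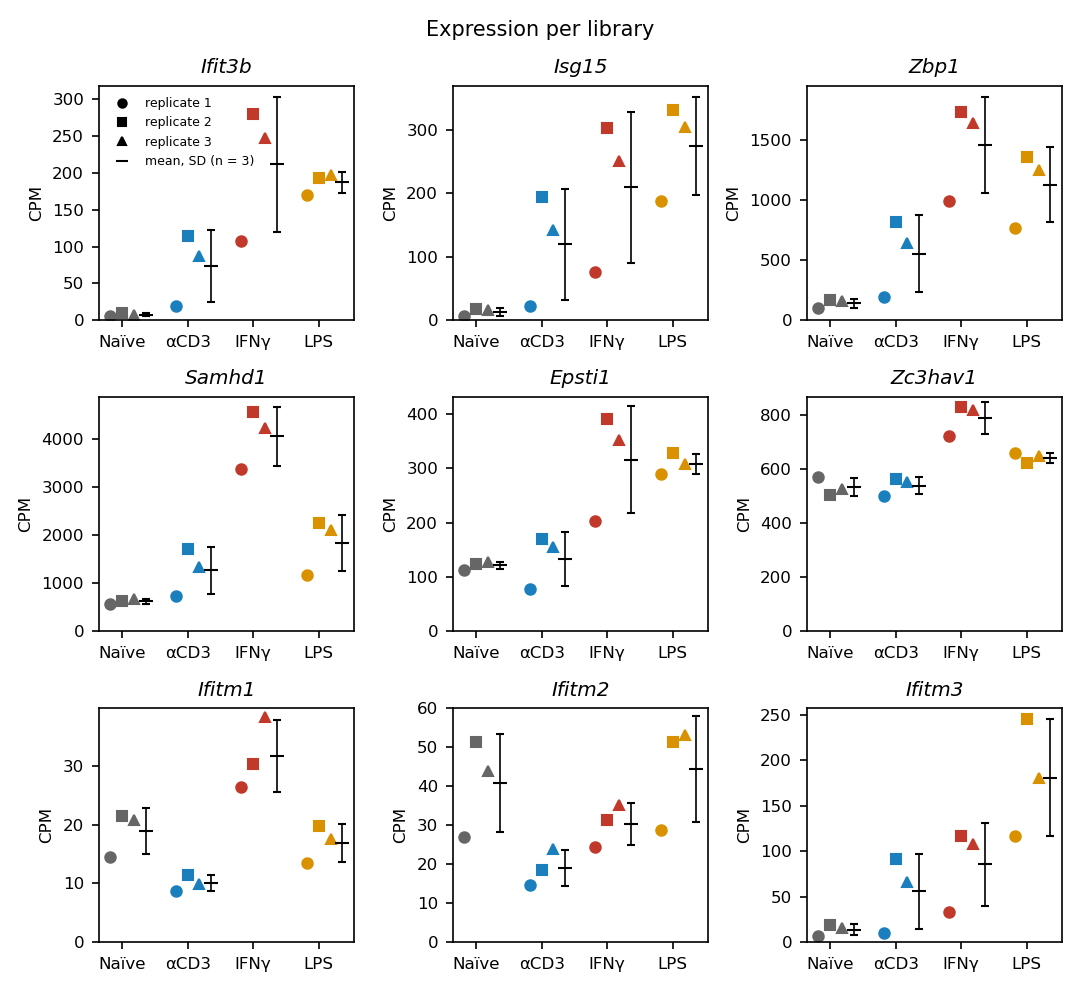
CPM of 9 antiviral genes in each library (vertical axis, linear from 0), by group (horizontal axis), with the replicate number as the symbol and the mean with SD (n = 3) in black. Ifitm1 and Ifitm2 lie lowest with αCD3, Samhd1 is highest with IFNγ, Ifitm3 is highest with LPS, and circles (replicate 1) are the lowest symbol in most groups.

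Among the large cytosolic proteins, ZAP (Zc3hav1) binds CG-rich viral RNA, ZNFX1 is a helicase-like sensor, HELZ2 a helicase-like coactivator, SAMD9L an inhibitor of translation and RNF213 a very large ubiquitin ligase. All 5 rose with IFNγ and LPS, and 4 with αCD3. Rnf213 was at 334, 472 and 451 CPM in the Naïve libraries, 592, 2523 and 2053 CPM with αCD3, 1681, 4037 and 3332 CPM with IFNγ and 2719, 3087 and 2918 CPM with LPS. Every treated library was above the Naïve range. Rnf213 rose by 2.85 ± 0.48 (SE, adjusted p = 0.00373) with IFNγ, 2.80 ± 0.48 (SE, adjusted p = 8.62e-04) with LPS and 2.04 ± 0.46 (SE, adjusted p = 0.00634) with αCD3. Zc3hav1 was at 569, 504 and 526 CPM in the Naïve libraries, 502, 565 and 550.4 CPM with αCD3, 722, 828 and 819 CPM with IFNγ and 657, 622 and 647 CPM with LPS. Here the αCD3 and Naïve libraries overlapped, and the IFNγ libraries stood above all others. Zc3hav1, which Naïve cells already expressed strongly, changed least of the genes that rose, 0.57 ± 0.07 (SE, adjusted p = 9.99e-04) with IFNγ and 0.27 ± 0.07 (SE, adjusted p = 0.0114) with LPS, and was at 0.02 ± 0.07 (SE, adjusted p = 0.883) with αCD3. Its LPS difference was 0.06 (adjusted p = 0.468) when libraries were scaled by library size alone. Znfx1, Helz2 and Samd9l rose by 1.44 to 1.84 with IFNγ, 1.33 to 1.67 with LPS and 0.77 to 1.22 with αCD3.

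PML, SP100 and DAXX are parts of nuclear bodies that silence viral genomes, and all 3 genes rose with all 3 treatments. Pml was at 122, 158 and 149 CPM in the Naïve libraries, 214, 729 and 614 CPM with αCD3, 763, 1032 and 954 CPM with IFNγ and 449, 757 and 693 CPM with LPS. Both IFNγ and LPS libraries were well above Naïve cells, and αCD3 replicate 1 was the lowest treated library. Pml rose by 2.68 ± 0.39 (SE, adjusted p = 0.00187) with IFNγ, 2.15 ± 0.38 (SE, adjusted p = 0.00110) with LPS and 1.86 ± 0.38 (SE, adjusted p = 0.00340) with αCD3. Sp100 was at 415, 422 and 421 CPM in the Naïve libraries, 433, 977 and 874 CPM with αCD3, 897, 1407 and 1366 CPM with IFNγ and 978, 1036 and 1042 CPM with LPS. In αCD3 replicate 1, Sp100 was just above the Naïve range. It rose by 1.55 ± 0.26 (SE, adjusted p = 0.00384), 1.28 ± 0.26 (SE, adjusted p = 0.00236) and 0.86 ± 0.26 (SE, adjusted p = 0.0232) with IFNγ, LPS and αCD3. Daxx lay between them with 2.37 ± 0.37, 2.13 ± 0.37 and 1.50 ± 0.36.

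The other 8 genes are interferon-induced proteins of mixed or less known function, among them XAF1, which promotes apoptosis, NMI and IFI35, which bind each other, and LGALS3BP, a secreted galectin ligand. All 8 rose with IFNγ and LPS and 7 with αCD3. Ifi44 was at 0.829, 1.80 and 1.51 CPM in the Naïve libraries, 2.75, 31.9 and 17.1 CPM with αCD3, 13.8, 55.4 and 42.9 CPM with IFNγ and 18.4, 37.4 and 30.0 CPM with LPS. All treated libraries lay above the Naïve range. Ifi44 rose by 4.80 ± 0.91 (SE, adjusted p = 0.00688) with IFNγ, 4.42 ± 0.90 (SE, adjusted p = 0.00248) with LPS and 3.65 ± 0.91 (SE, adjusted p = 0.00988) with αCD3. Epsti1 was at 114, 124 and 127 CPM in the Naïve libraries, 77.4, 169.8 and 155 CPM with αCD3, 204, 391 and 352 CPM with IFNγ and 290.4, 327 and 308 CPM with LPS. αCD3 replicate 1 of Epsti1 was below the Naïve range and replicates 2 and 3 above it, whereas all IFNγ and LPS libraries were higher than both groups. It rose by 1.38 ± 0.29 (SE, adjusted p = 0.0111) with IFNγ and 1.34 ± 0.29 (SE, adjusted p = 0.00309) with LPS, and was at 0.14 ± 0.28 (SE, adjusted p = 0.733) with αCD3. Xaf1, Ifi27l2a, Ifi35, Nmi, Rtp4 and Lgals3bp rose by 1.69 to 2.62 with IFNγ, 1.65 to 2.47 with LPS and 1.08 to 1.78 with αCD3.

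**Figure D3:**
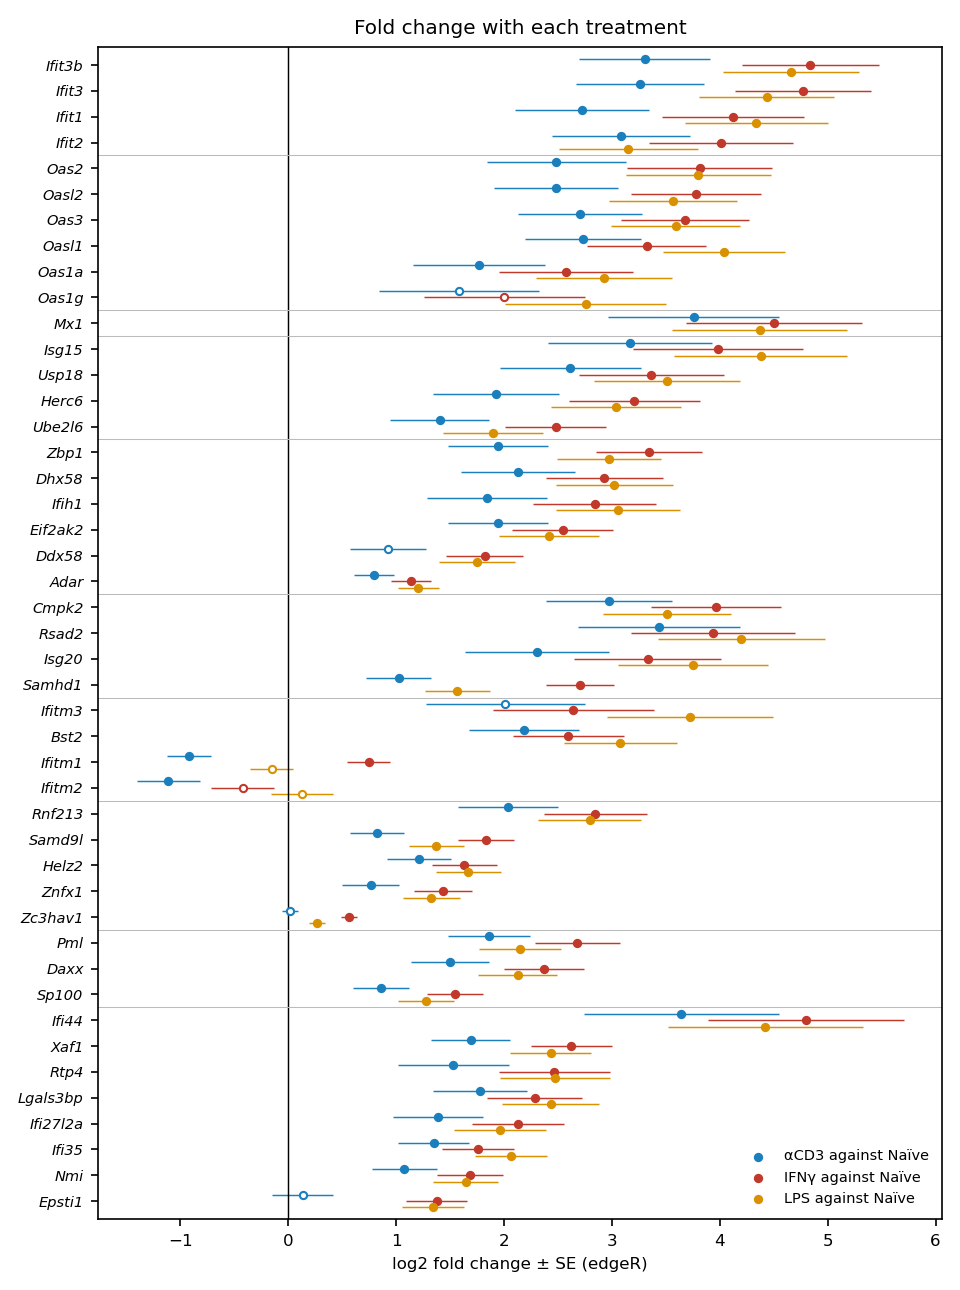
Log2 fold change ± SE of each of the 45 tested antiviral genes (rows, grouped by role) against Naïve cells with αCD3 (blue), IFNγ (red) and LPS (orange), with filled points for called genes and open points for genes not called. Points lie to the right of 0 for all genes but Ifitm1 and Ifitm2, and the αCD3 point lies left of the other two in each row.

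Levels were also compared per length, as CPM per kilobase of the longest coding transcript (mean ± SD, n = 3). In Naïve cells the highest were Samhd1 (158 ± 13.3), Ifi27l2a (158 ± 51.2) and Sp100 (155 ± 1.39), which differed by no more than their spread. With IFNγ, Samhd1 stood first at 1032 ± 156, followed by Zbp1 at 732 ± 202 and Ifi27l2a at 689 ± 279.8. With LPS, Ifi27l2a at 615 ± 103, Zbp1 at 567 ± 157 and Samhd1 at 469.9 ± 148 had overlapping spreads between libraries. Within each LPS library, however, Samhd1 was the lowest of these 3. Oas1g (5.49 ± 3.43 with IFNγ) was the lowest of the tested genes in each treated group, and Ifi44 the lowest in Naïve cells at 0.474 ± 0.171.

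Within each group, replicate 1 stood lowest for most antiviral genes. Replicate 1 was the lowest library for 41 of 45 genes in Naïve cells, 45 with αCD3, 45 with IFNγ and 43 with LPS, whereas over all genes it was the lowest for 38.5% to 42.9%. Replicate 2 was the highest for 30, 44, 43 and 37 genes. The mean of replicates 2 and 3 was a median of 3.73 times that of replicate 1 with αCD3 (range over genes 1.11 to 8.91), 2.30 times with IFNγ, 1.45 times in Naïve cells and 1.31 times with LPS, against a median of 0.989 to 1.01 times over all genes, in which genes higher and lower in replicate 1 offset each other. αCD3 replicate 1 lay inside or below the Naïve range for 13 genes (63% of all genes), while αCD3 replicates 2 and 3 were both above it for 42 (34.1% of all genes). In all, 32 genes had all αCD3 libraries above all Naïve libraries (28.6% of all genes did). Against the Naïve library of its own number, the median log2 difference over the 45 genes was 0.81, 2.26 and 1.99 for αCD3 replicates 1, 2 and 3, compared with 2.18, 2.71 and 2.79 for IFNγ and 2.93, 2.71 and 2.83 for LPS. With αCD3, 38 genes were called higher with all libraries, 25 without αCD3 replicate 2 (16.9% of all genes) and 42 when replicate 1 of every group was left out (26.7% of all genes), the last being an alternative chosen after the values were seen.

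**Figure D4:**
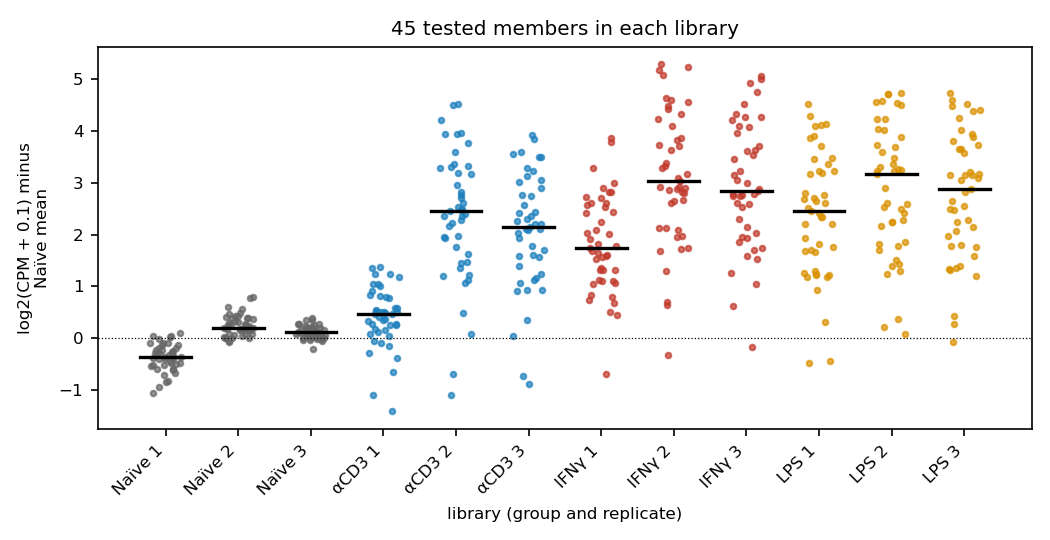
Each point is 1 of the 45 tested antiviral genes, plotted as log2(CPM + 0.1) minus its Naïve mean (vertical axis) in each of the 12 libraries (horizontal axis), and black lines are medians. Replicate 1 has the lowest median in each group, and the median of αCD3 replicate 1 is nearer to the Naïve libraries than to αCD3 replicates 2 and 3.

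Other genes moved with the replicate number as well. Ifng, the gene for IFNγ itself, was at 4.34, 40.6 and 31.2 CPM with αCD3 and 8.69, 300.2 and 260.4 CPM with LPS, thus lowest in replicate 1, against at most 5.07 CPM in any Naïve or IFNγ library. Erythroid markers summed to 137 to 227 CPM in replicate 1 of the 4 groups and to 534 to 1724 CPM in replicates 2 and 3 (4 of 5 listed genes in the table, with Hba-a1 the most abundant). Macrophage and monocyte markers were also lowest in replicate 1 of each group, at 177 to 364 CPM against 244 to 655 CPM. The plasmacytoid dendritic cell sum was highest in replicate 2 of each group, at 95.7 to 140 CPM against 62.3 to 95.9 CPM. Most of this sum was Ccr9 and Pacsin1. Siglech, Ccr9, Klk1 and Cox6a2 were each highest in replicate 2 of each group, but Pacsin1 was so only with IFNγ. In Naïve cells Pacsin1 was at 36.2, 31.9 and 28.4 CPM. By contrast, Cd5, which is raised by T cell receptor signals, was highest in replicate 1 of each group. It was at 171, 123 and 128 CPM with αCD3 and 58.7, 41.7 and 43.5 CPM in Naïve cells. With IFNγ it was at 46.3, 31.9 and 36.8 CPM, and with LPS at 29.5, 20.1 and 21.8 CPM. Irf1 was at 1292, 1102 and 1141 CPM with IFNγ, where replicate 1 was the highest, but replicate 1 was the lowest in the other groups, with 239, 267 and 310.2 CPM in Naïve cells, 339, 546 and 447 CPM with αCD3 and 389, 1039 and 998 CPM with LPS. The part of these cells or of Ifng in the replicate differences of the antiviral genes was not tested.

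Next, the treatments were compared with each other. IFNγ lay above αCD3 for all 45 genes by the fitted value (median 0.82, against 0.03 over all genes), but only 7 were called higher and none lower (15.8% and 21.4% of all genes). The 7 were Samhd1 (1.68 ± 0.30 (SE, adjusted p = 0.00158)), Ifitm1 (1.66 ± 0.21 (SE, adjusted p = 1.26e-04)), Ifit3b (1.54 ± 0.54 (SE, adjusted p = 0.0445)), Zbp1 (1.40 ± 0.45 (SE, adjusted p = 0.0337)), Epsti1 (1.24 ± 0.29 (SE, adjusted p = 0.00633)), Samd9l (1.01 ± 0.25 (SE, adjusted p = 0.00960)) and Zc3hav1 (0.55 ± 0.07 (SE, adjusted p = 2.09e-04)). Ifit3b kept its call in 8 of 18 alternatives and Zbp1 in 14, whereas the other 5 kept theirs in all 18. With the replicate number as a block, 25 genes were called higher (23.7% of all genes), and without replicate 1 of every group 40 (20.4% of all genes). The count was 17 without IFNγ replicate 1 (13% of all genes) and 13 without αCD3 replicate 2 (11.6%).

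αCD3 lay below LPS for all 45 genes by the fitted value (median -0.77, against -0.01 over all genes), and 4 were called lower and none higher (9.76% and 9.64% of all genes). These were Epsti1 (-1.21 ± 0.28 (SE, adjusted p = 0.0147)), Ifitm2 (-1.24 ± 0.30 (SE, adjusted p = 0.0155)), Ifitm1 (-0.76 ± 0.21 (SE, adjusted p = 0.0259)) and Zc3hav1 (-0.25 ± 0.07 (SE, adjusted p = 0.0351)). With the replicate block the count rose to 30 (18.2% of all genes), and without replicate 1 of every group to 33 (15.1% of all genes). Without αCD3 replicate 1, LPS replicate 2 or LPS replicate 3 it was 1 each time, and without αCD3 replicate 3 it was 2, while the share of all genes called lower fell as well, to 7.44%, 5.76%, 6.01% and 6.01%. The comparisons between treatments use the same treated libraries as those against Naïve cells.

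To ask which antiviral genes set IFNγ apart from LPS, these groups were compared directly. The median difference over the 45 genes was 0.07, against 0.04 over all genes, and 3 genes were called higher with IFNγ and none lower (18% and 22.4% of all genes). In each comparison and direction where edgeR called none of these genes, DESeq2 and limma-voom called none either and none had an unadjusted p under 0.05. Samhd1 differed most, 1.13 ± 0.30 (SE, adjusted p = 0.0119), with 3369.8 CPM in the lowest IFNγ library against 2249.7 CPM in the highest LPS library. Ifitm1 differed by 0.90 ± 0.20 (SE, adjusted p = 0.00442) and Zc3hav1 by 0.30 ± 0.07 (SE, adjusted p = 0.00778), in each case without overlap between the libraries of the groups. All 3 calls held in 18 of 18 alternatives. At the other end, Ifitm3 was at -1.08 ± 0.68 (SE, adjusted p = 0.234), Oas1g at -0.75 ± 0.68 (SE, adjusted p = 0.406) and Ifitm2 at -0.55 ± 0.29 (SE, adjusted p = 0.156), and these 3 were called lower with IFNγ with the replicate block (26.9% of all genes), adjusted p = 0.0247, 0.0414 and 0.00431. The block also called Ube2l6 higher with IFNγ (0.57, adjusted p = 0.0222, against 0.58 ± 0.44 (SE, adjusted p = 0.321) without the block), 4 in all (25.8% of all genes). Without replicate 1 of every group, 20 genes were called higher with IFNγ (22.3% of all genes) and 3 lower (25.5%). The SE was large for many of the others, as for Mx1 (0.13 ± 0.69), where a 2-fold difference in either direction lies within 2 SE of the value.

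**Figure D5:**
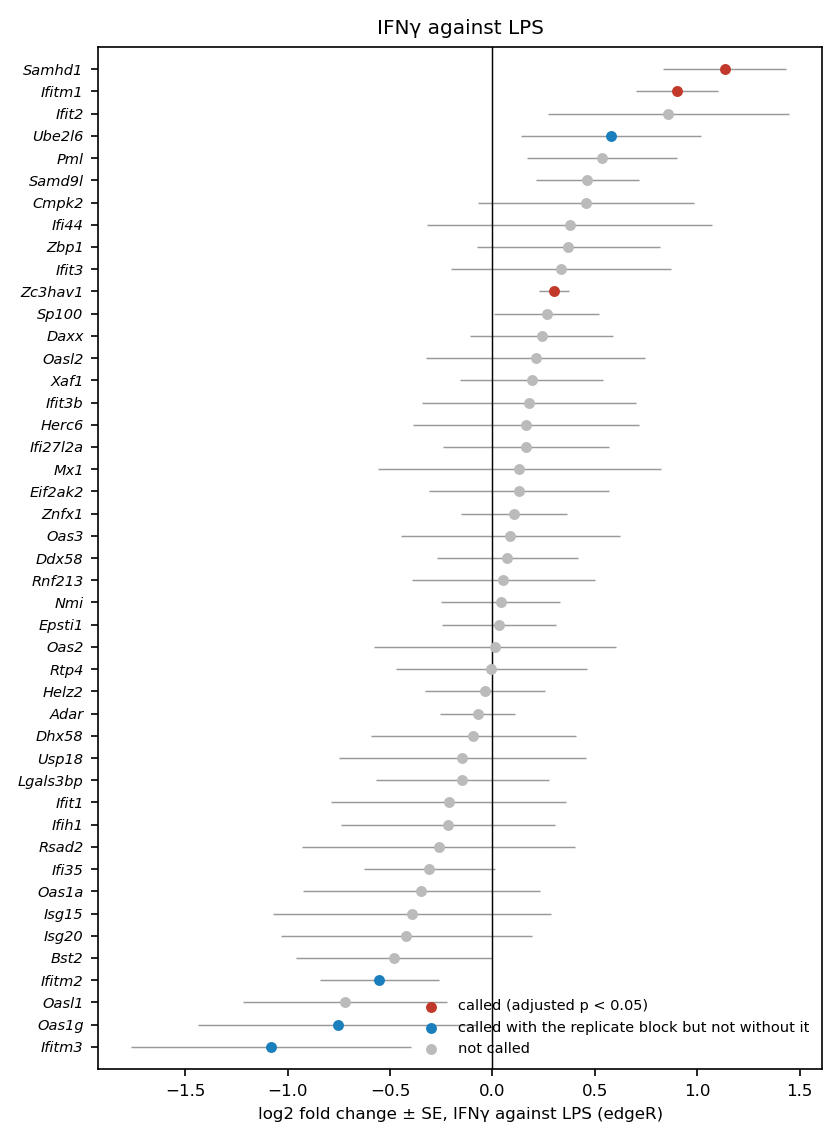
Log2 fold change ± SE between IFNγ and LPS for the 45 tested antiviral genes (rows, ordered by the value), with red points for genes called, blue for genes called with the replicate block but not without it and grey for the rest. Samhd1 (1.13) and Ifitm3 (-1.08) are at the ends, and most SE bars cross 0.

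The genes that carry the interferon signal were examined beside its targets. Of these genes, 24 were rows of the table and 19 of them were tested, and 7 rose and 1 fell with IFNγ (8.17% and 4.27% of all genes), 9 rose and 1 fell with LPS (26.9% and 22.3%), and 4 rose and 4 fell with αCD3 (22.9% and 15.7%), so the αCD3 counts were near the share over all genes. Median log2 fold changes were 0.19, 0.37 and 0.09 with IFNγ, LPS and αCD3. With the replicate block, 10 rose and 3 fell with LPS (31% and 28.4% of all genes), and 6 rose and 6 fell with αCD3 (28.1% and 24.2%). The block added Ifng, Uba7, Ifnar2 (adjusted p = 0.00699) and the kinase Jak1 (adjusted p = 7.04e-04) with αCD3, the latter 2 lower, and Ifnar2 (higher, adjusted p = 0.0371), Ifnar1 (lower, adjusted p = 0.0208) and Jak1 (lower, adjusted p = 0.0131) with LPS. The type I ligands Ifnb1, Ifna1, Ifna2, Ifna4 and Ifna5 were at 0 to 0.307 CPM, which is 3 counts or fewer in each library, and were not tested. None had a count in a Naïve library, whereas Ifnb1, Ifna1 and Ifna4 had counts in all 3 LPS libraries and Ifnb1 in all 3 IFNγ libraries. With αCD3, Ifnb1 had counts in replicates 2 and 3 (0.165 and 0.161 CPM) and Ifna1 in replicate 1. Ifna1 also had a count in IFNγ replicate 1, and Ifna2 in IFNγ replicate 2 and LPS replicates 1 and 2. Ifng rose with LPS, 6.19 ± 1.25 (SE, adjusted p = 0.00234), and was at 3.25 ± 1.21 (SE, adjusted p = 0.0550), and called with the replicate block (adjusted p = 0.0108), with αCD3 and 0.47 ± 1.44 (SE, adjusted p = 0.879) with IFNγ. The IFNγ receptor chain Ifngr1 fell with αCD3, -1.37 ± 0.09 (SE, adjusted p = 5.76e-06), as did the second chain Ifngr2, -0.67 ± 0.11 (SE, adjusted p = 0.00100), and the type I receptor chain Ifnar1, -0.36 ± 0.09 (SE, adjusted p = 0.00765). Ifngr2 also fell with IFNγ, -0.64 ± 0.11 (SE, adjusted p = 0.00423), and Ifngr1 with LPS, -0.29 ± 0.09 (SE, adjusted p = 0.0186). Ifngr1 was at 675, 666 and 658 CPM in Naïve cells and at 297, 223 and 250.3 CPM with αCD3. The groups were far apart, and replicate 1 was not the lowest.

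Among the transcription factors, Stat2, Irf9 and Irf7 rose with each treatment, by 2.17 ± 0.31, 0.91 ± 0.11 and 2.94 ± 0.54 with IFNγ, by 1.75 ± 0.31, 0.86 ± 0.11 and 3.04 ± 0.54 with LPS, and by 1.13 ± 0.30, 0.42 ± 0.11 and 2.14 ± 0.52 with αCD3. Irf1 rose with IFNγ, 2.11 ± 0.32 (SE, adjusted p = 0.00226), and LPS, 1.57 ± 0.32 (SE, adjusted p = 0.00227), and was at 0.70 ± 0.31 (SE, adjusted p = 0.0969) with αCD3. Tyk2 was listed at 4.53, 7.74 and 9.50 CPM in Naïve cells and 2.27, 0 and 2.82 CPM with IFNγ, which did not overlap but were not called different (adjusted p = 0.181), and at 13.5, 1.09 and 13.5 CPM with LPS. Irf3 was not called with any treatment. Counts of Tyk2 and Irf3 in the deposited table were low and uneven within groups, and how transcripts were combined into symbols is not given in the sources used here, so the values of these 2 genes are uncertain. Socs1, a feedback inhibitor of JAK kinases, rose with IFNγ, 2.10 ± 0.53 (SE, adjusted p = 0.0272), and LPS, 1.55 ± 0.52 (SE, adjusted p = 0.0306), and was at 0.29 ± 0.51 (SE, adjusted p = 0.692) with αCD3. Socs3 fell with αCD3, -1.24 ± 0.29 (SE, adjusted p = 0.00702), and rose with LPS, 0.90 ± 0.28 (SE, adjusted p = 0.0238). LPS replicate 1 lay within the Naïve range for both Socs1 and Socs3. There Socs1 was at 88.0 CPM (50.2 to 115 CPM in Naïve cells) and Socs3 at 315 CPM (207 to 360 CPM). Uba7, whose product starts the attachment of ISG15, rose with IFNγ (1.89 ± 0.24) and LPS (1.52 ± 0.24) and was at 0.64 ± 0.23 (SE, adjusted p = 0.0513) with αCD3, called with the replicate block (adjusted p = 0.0106). Trim25, a ubiquitin ligase that acts on RIG-I, rose with all 3 treatments (1.36 ± 0.19, 1.07 ± 0.19 and 0.86 ± 0.19 with IFNγ, LPS and αCD3).

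Finally, promoters of the antiviral genes were searched for the letters bound by interferon-activated factors. RefSeq promoters (GRCm38.p6, 250 bases before to 50 after the annotated start, both strands) matched 38 of the 46 genes. The ISRE core was present for 14 of the 38 (36.8%, exact 95% interval 21.8 to 54.0%), against 3.99% of 27025 genes in the same table. A longer form, GAAA, any 2 bases and GAAACT, which contains the core, was present for 8 (21.1%) against 0.303% of all genes. The GAS letters TTCNNNGAA were present for 9 (23.7%) against 9.55%. The 14 genes with a core were Bst2, Ddx58, Eif2ak2, Ifih1, Ifit1, Ifit3, Ifit3b, Ifitm2, Ifitm3, Isg15, Oas1a, Oas1g, Oas3 and Rsad2, and they include 2 pairs of near copies, so they are not independent. Their median log2 fold change was 2.74 with IFNγ, 3.33 with LPS and 2.10 with αCD3, compared with 2.42, 2.10 and 1.45 for the 24 tested genes without one. Between IFNγ and LPS directly, the median was -0.24 for genes with a core and 0.20 for those without. These matches are a description of letters within this window and carry no test.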

How the data were processed

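RNA of 12 libraries of mouse splenic CD8 T cells (3 each of Naïve, αCD3, IFNγ and LPS) was measured by mRNA sequencing, and libraries were grouped by their labels. Reads were pseudo-aligned by the authors with Kallisto (genome mm10, version not given in the sources used here), and the authors deposited unscaled estimated counts, 1 row per gene symbol and 1 column per library. A read that fits several transcripts is shared out between them by this method, so near copies are uncertain, and the strand setting is not given in the sources used here. Per the submitters' processing notes the authors used DESeq2 1.24.0.

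Here the expected counts were rounded to whole numbers, filtered with filterByExpr and scaled with TMM, and all 12 libraries entered 1 quasi-likelihood fit by group in edgeR 4.0.16 (R 4.3.3), with Benjamini-Hochberg adjustment over 12122 genes and 6 pairwise comparisons. The fitting steps were tested on simulated data. The simulated libraries were independent, with no effect of the replicate number, so that test does not cover variation shared between same-numbered libraries. CPM are on TMM-scaled library sizes, and library positions use log2 CPM with a prior count of 2. Library depth was 10.2 M to 27.6 M counts, and intervals and floors cover counting error only. Alternatives were DESeq2 1.42.0, limma-voom (limma 3.58.1), library size alone, no filter (any gene with a count), the replicate number as a block, each library left out in turn and, added after the data were seen, replicate 1 of every group left out. Same-numbered libraries deviated together from their group means (r = 0.117 to 0.401 over 18 pairs across genes, against -0.354 to 0.102 for different numbers), so the labels' replicate numbers were taken to pair the samples by this check of the data, and blocked counts or values are printed where the block changed the calls described.

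The 46 genes, their roles, the list of interferon pathway genes and the marker lists were chosen with earlier results of these data known. Values per library are given for the gene with the highest and the lowest IFNγ fold change of each role, genes called lower in any comparison with Naïve, genes not called with IFNγ and genes called between IFNγ and LPS. The 46 genes were matched by symbol to GENCODE M21 (GRCm38), and promoter sequences are from RefSeq (GRCm38.p6). Promoters of Mx1, Mx2, Oas2, Usp18, Dhx58, Zbp1, Rtp4 and Ifi27l2a were not analysed here. The 31-base words are those of the annotated transcripts. Some genes of the pathway list are not reported here and were left out of its counts.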

Additional observations from a re-analysis of the deposited data

How the results depend on the processing

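No result on the antiviral genes reversed its direction where it was called, and the counts of genes called higher with IFNγ or LPS against Naïve cells stayed within 1.5 times of the values reported under every alternative run. With the replicate block, 1 gene was called lower with IFNγ than in Naïve cells (Ifitm2), 25 were called higher with IFNγ than with αCD3, 3 lower with IFNγ than with LPS and 30 lower with αCD3 than with LPS. In all, the block added 53 calls of single antiviral genes over the 6 comparisons, these included, and changed no other call of these genes. Without replicate 1 of every group, an alternative chosen after seeing the data, these counts were 1, 40, 3 and 33, and 20 were higher with IFNγ than with LPS. DESeq2 called 13 genes higher with IFNγ than with αCD3 (12.5% of all genes fitted), and limma-voom 11 (15.7%), with 7 lower with αCD3 than with LPS (10.2%). Leaving out 1 library at a time gave 25 to 41 genes higher and 1 to 2 lower with αCD3 than in Naïve cells, 5 to 17 higher with IFNγ than with αCD3, 1 to 4 lower with αCD3 than with LPS and 0 to 1 lower with IFNγ than with LPS. The median difference between IFNγ and LPS over the 45 genes, 0.07, ranged from -0.16 to 0.35 with 1 library left out. The cause of these differences was not tested. Scaling by library size alone moved the median of all genes with IFNγ from -0.02 to -0.16, with αCD3 from -0.02 to -0.13 and with LPS from -0.01 to -0.22, and the calls over all genes with IFNγ from 990 higher and 518 lower to 715 higher and 1564 lower, with αCD3 from 2775 and 1906 to 2095 and 2667, and with LPS from 3265 and 2709 to 2140 and 4380. The antiviral genes had medians of 2.49, 1.74 and 2.58 on that scale, with 43, 37 and 42 called higher. Calls over all genes with IFNγ were 3020 with the replicate block, against 1508 without it. A group with 1 library left out kept 2 and was fitted with the spread shared by all groups. The share of promoters with an ISRE core, 36.8%, was 21.1% with the longer motif. Protein sequences were not analysed here. The counts of Ifi44, Oas1g and Rtp4 in Naïve cells were low, which limits the precision of their fold changes.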
